A study of Mus musculus with 8 samples.

Results

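Immature neutrophils of the bone marrow were compared between cells labelled with hashtag antibodies 1 to 4 and cells labelled with hashtag antibodies 5 to 8. A hashtag is a DNA-barcoded antibody that marks all cells of one sample before samples are pooled for sequencing. A marrow cell was taken as an immature neutrophil when Camp, Ngp and Ltf, which encode proteins of the specific granule, made up at least 1% of its unique molecular identifiers (UMIs, counts of single RNA molecules) and it held 0 UMIs of Csf1r, the receptor for macrophage colony-stimulating factor. The cells were thus chosen by their measured levels of these 4 genes. The hashtag of a cell was the highest of 8, with a count of at least 20 and at least 3 times the next. This gave 1888 immature neutrophils among 5682 marrow cells and 20012 cells of the series. They were 33.23% of the sorted marrow cells (exact Clopper-Pearson 95% interval 32 to 34.47, counting error only). A single hashtag was assigned to 1636 of them, with 61, 131, 392 and 111 cells in hashtags 1 to 4 and 199, 373, 137 and 232 cells in hashtags 5 to 8.

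The mice were C57BL6/J females that all carried MOPC tumors, grown from mouse oropharyngeal carcinoma cells injected under the skin of the flank. Cells flushed from the femur were pooled across hashtags and sorted either as living Gr1-positive cells without markers of NK, mast, red, B and T cells, or as living Gr1-negative cKit-positive cells. Each hashtag stood for a mouse and a condition of the organ, and was taken as 1 mouse. The labels name the genotypes WT and Genotype_02 (a gene knockout model) for the marrow library as a whole and tie neither to a hashtag, so the groups are called by their hashtag numbers alone and the genotype of each group is not stated. The gene that was knocked out and the ages of the mice are not given in the sources used here. All 8 hashtags were in 1 library of 1 batch.

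Neutrophils mature in the marrow from promyelocytes, which make the azurophil granule proteases, through myelocytes and metamyelocytes, which make the specific granule proteins and stop dividing, to band and segmented cells with gelatinase granules. Interferons bind receptors that act through a complex with IRF9 as its DNA-binding part, and this complex switches on antiviral genes through a promoter element known as the interferon-stimulated response element. A basal tone of this response is known in marrow cells without infection.

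The markers of the class were present. Cebpe, the transcription factor that drives specific granule genes, had at least 1 UMI in 80.2% of the assigned cells against 14.2% of the marrow mature neutrophils defined below, at median depths of 8978.5 and 3601 UMIs. Cebpe stood at 454, 455, 476 and 529 CPM (a gene's count per sum, brought to the same total in every sum) in hashtags 1 to 4 and at 511, 482, 476 and 493 CPM in hashtags 5 to 8. Camp, Ngp and Ltf were used to choose the cells and are given as a description. Camp made up 42058 to 46351 CPM in hashtags 1 to 4 and 43802 to 47958 CPM in hashtags 5 to 8. At the edge of the rule, 93 marrow cells had 1 to 1.5% of the 3 granule genes and 61 had 0.75 to 1%. Of those just inside, 47.3% had a UMI of Cebpe, and of those just outside, 39.3%. A further 184 marrow cells met the granule limit and were left out for a UMI of Csf1r alone.

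Depth was even between the groups, with medians of 8622 to 9360 UMIs per cell in hashtags 1 to 4 and 8470 to 9577 in hashtags 5 to 8. The summed counts ran from 663721 UMIs in hashtag 1 to 4424355 in hashtag 3. Cells left without a single hashtag were deeper, with a median of 15207.5 UMIs in 252 cells. The 4 libraries of the series shared 62 cell barcodes, of which 3 were in the assigned immature neutrophils. Summed over the list of each other cell type, markers of dendritic cells, basophils or mast cells, eosinophils, stroma, and epithelial or tumor cells stayed at or below 23.1 CPM in every hashtag. Siglech and Epx, which define plasmacytoid dendritic cells and eosinophils, were at 0.

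Promoter stretches are shown for 4 interferon-induced genes that were lower in hashtags 5 to 8, because the element through which the interferon complex acts can be read in them. They come from RefSeq (build GRCm38.p6, the mm10 assembly), run 5′ to 3′ on the strand of the gene and end before its start site, and capitals mark GAAANNGAAA.
Isg15: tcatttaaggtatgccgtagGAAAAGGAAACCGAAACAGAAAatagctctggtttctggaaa
Oas3: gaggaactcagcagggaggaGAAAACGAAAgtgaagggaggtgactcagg
Bst2: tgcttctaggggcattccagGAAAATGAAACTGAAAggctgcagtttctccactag
Ddx60: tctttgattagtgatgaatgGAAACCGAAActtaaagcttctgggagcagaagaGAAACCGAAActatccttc
The stretches lie at chr4:156200855-156200916, minus strand, for Isg15, at chr5:120777705-120777754, minus strand, for Oas3, at chr8:71537567-71537622, minus strand, for Bst2, and at chr8:61928014-61928086, plus strand, for Ddx60. Isg15 held 3 overlapping matches, Bst2 2 overlapping matches, Ddx60 2 separate matches and Oas3 1. GAAANNGAAA, or TTTCNNTTTC on the other strand, was searched in windows from 250 bases before to 50 bases after each start site. It stood in 3.99% of the 27025 genes with a window and in 3.93% of the 5909 tested genes that matched a window by symbol. Of the 14 members of the interferon response list that were called lower, 11 matched a window and 8 of these held it (72.7%). Among the other genes called lower, 16 of 125 held it (12.8%), and among the 14 genes called higher with a window, 0. A match describes these letters only.

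In the comparison of all genes, 191 of 7365 genes tested were called at an adjusted p under 0.05 by edgeR's quasi-likelihood test, which is 2.59%. Of these, 17 were higher in hashtags 5 to 8 (0.231% of the genes tested) and 174 were lower (2.36%). The median log2 fold change of all genes was -0.11 with total UMIs as library sizes. With TMM factors, which set the bulk of genes to no change, this median moved up by 0.11, and 31 genes were higher (0.421%) and 84 lower (1.14%). Higher genes were thus 8.9% of the calls with total UMIs and 27% with TMM, and 101 of the 191 calls passed under both. The values of all 4 hashtags of one group lay apart from those of the other group for 612 genes (8.31%). Without hashtag 3, the largest sum, 10 genes were higher and 70 lower, without hashtag 4, 11 and 87, and without hashtag 6, 10 and 91. Over 17 alternatives of cells, scaling, filter and test and 8 left-out hashtags, 17 of the 191 calls passed in each setting that tested them, 5 of them higher and 12 lower.

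**Figure D1:**
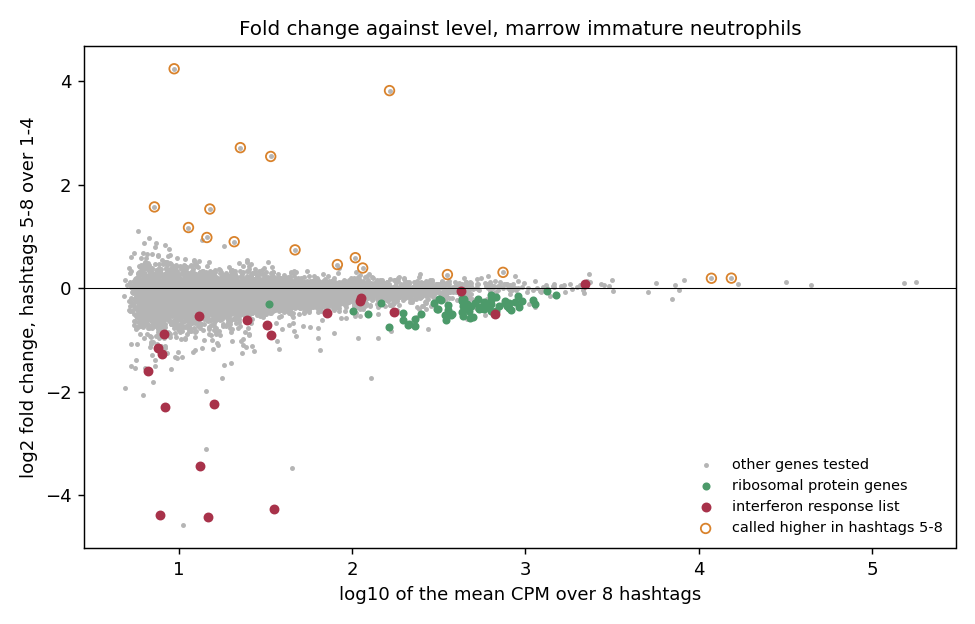
Log2 fold change of hashtags 5-8 over 1-4 for each gene tested in marrow immature neutrophils, against the log10 of its mean CPM over 8 hashtags. Ccl5, whose level rests on 1 hashtag, lies outside the plotted range. Members of the interferon response list reach below -4, ribosomal protein genes lie close under 0 at high levels, and circles mark the 17 genes called higher.

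Interferon-induced genes were lower in hashtags 5 to 8. Of the 21 members of the interferon response list that could be tested, 14 were lower in hashtags 5 to 8 and 0 higher, against 2.36% of all genes lower. Their median log2 fold change was -0.88 against -0.11 over all genes, and with TMM factors 11 of 21 were lower. DESeq2 without independent filtering called 10 of 21, all lower. Without hashtag 3, 8 of 15 were lower with a median of -0.49, and without hashtag 6, 9 of 20 with a median of -0.63. The other 17 genes that the table holds of this list were below 100 UMIs in all. Some members passed this limit only through hashtags 1 to 4, so the count and the median depend on it in part. Rtp4 had 107 UMIs in hashtags 1 to 4 and 6 in hashtags 5 to 8, Isg15 165 and 20, and Oas3 213 and 12. Among genes with at least 500 UMIs, 6 of 10 members were lower with a median of -0.47. With cells thinned to 3000 UMIs, 4 of 11 were lower with a median of -0.54. Among cells without cycling signal, 9 of 15 tested members were lower, and 6 of 13 among cells without a UMI of Elane, Mpo, Prtn3 or Ctsg.

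Oas3, a sensor enzyme that makes 2-5A on binding double-stranded RNA, stood at 34.7, 30.0, 28.3 and 19.8 CPM in hashtags 1 to 4 and 1.87, 0.78, 1.47 and 1.25 CPM in hashtags 5 to 8. Every hashtag of the second group was below every hashtag of the first. The log2 fold change was -4.42 ± 0.29 (SE, adjusted p = 7.2e-10). Ifi27l2a, a small interferon-induced membrane protein, stood at 78.3, 46.8, 66.5 and 78.2 CPM in hashtags 1 to 4 and 2.8, 4.16, 3.68 and 2.5 CPM in hashtags 5 to 8, with a log2 fold change of -4.27 ± 0.22 (SE, adjusted p = 8.6e-12). Its neighbour Ifi27 stood at 107, 78.9, 81.8 and 65.9 CPM in hashtags 1 to 4 and 9.34, 6.76, 5.15 and 7.49 CPM in hashtags 5 to 8, and the groups again did not overlap (log2 fold change -3.47 ± 0.18 (SE, adjusted p = 8.6e-12)). The annotated spans of these genes, chr12:103433873-103443680 and chr12:103434189-103440245, overlap, so the counting could have shared reads between them.

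Isg15, a ubiquitin-like protein that is joined to other proteins after interferon, was counted at 33.1, 31.4, 18.5 and 14.8 CPM in hashtags 1 to 4 and 1.87, 2.34, 1.47 and 2.08 CPM in hashtags 5 to 8. Its log2 fold change was -3.43 ± 0.32 (SE, adjusted p = 3.3e-07), and the lowest of hashtags 1 to 4 was above the highest of hashtags 5 to 8. Rtp4, an interferon-induced receptor chaperone, was at 21.1, 11, 13.8 and 14 CPM in hashtags 1 to 4 and 2.34, 0, 0 and 0.416 CPM in hashtags 5 to 8. Hashtags 6 and 7 held no UMI of it, and the log2 fold change was -4.39 ± 0.50 (SE, adjusted p = 8.9e-06). Bst2 (tetherin), which holds budding viruses at the cell surface, was at 16.6, 10.2, 15.4 and 14 CPM in hashtags 1 to 4 and 2.8, 3.64, 2.21 and 2.08 CPM in hashtags 5 to 8, a log2 fold change of -2.29 ± 0.29 (SE, adjusted p = 3.8e-05).

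Transcription factors of the response were lower too. Irf9, the DNA-binding subunit of the interferon complex, stood at 27.1, 35.1, 22.8 and 20.6 CPM in hashtags 1 to 4 and 2.34, 5.2, 5.15 and 8.73 CPM in hashtags 5 to 8. The 2 ranges lay apart, with a log2 fold change of -2.23 ± 0.26 (SE, adjusted p = 1.4e-05). Irf7 fell by 1.28 on the log2 scale (adjusted p = 0.0391), and its call was lost with TMM factors (adjusted p = 0.0808). Stat2, at -0.53 on the log2 scale (adjusted p = 0.213), was not called.

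Other called members of the list were Ifitm3, an inhibitor of viral entry, the RNA sensors Ddx58 (RIG-I) and Ifih1 (MDA5), Trim30a, Gbp7, a guanylate-binding protein, and Sp100, a nuclear body protein. Ifitm3 was abundant, at 839, 742, 829 and 735 CPM in hashtags 1 to 4 and 603, 549, 597 and 485 CPM in hashtags 5 to 8. Its change was small but the groups did not overlap (-0.50 ± 0.08 (SE, adjusted p = 5.8e-04) on the log2 scale). The log2 fold changes of the others were -1.61 for Gbp7, -1.15 for Ifih1, -0.90 for Trim30a, -0.71 for Ddx58 and -0.46 for Sp100, with adjusted p from 0.00113 (Trim30a) to 0.030 (Ddx58), and the call of Ddx58 was lost with TMM factors (adjusted p = 0.0808). Among the tested members that were not called, Slfn4 stood at -0.25 (adjusted p = 0.184), Slfn1 at -0.20 and Isg20 at -0.88 on the log2 scale. Genes outside the list that are known to respond to interferon, picked after their values were seen, were also lower. They were Gm20559 (-1.73), Epsti1 (-1.25), Parp14 (-1.24), Ddx60 (-1.18), the kinase gene Eif2ak2 (-1.02), the RNA editing enzyme gene Adar (-0.90) and Rnf213 (-0.88), values on the log2 scale.

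**Figure D2:**
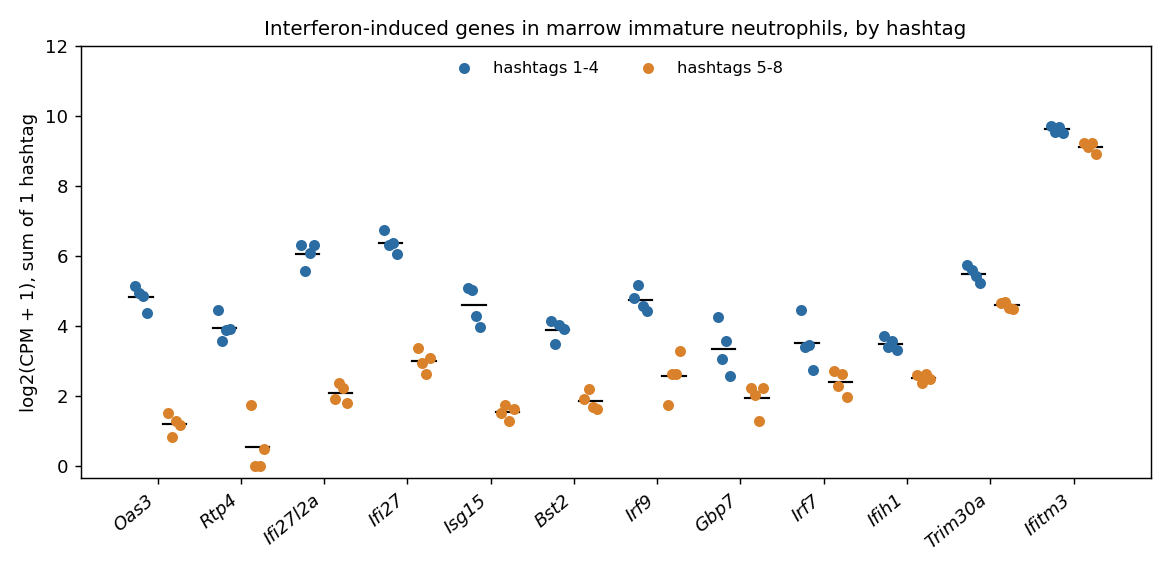
Log2(CPM + 1) of 12 interferon-induced genes in the sum of each hashtag, with 1 point per hashtag and a bar at the mean of 4. The 4 points of hashtags 5-8 lie below the 4 points of hashtags 1-4 for each of the 12 genes shown.

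Genes of the MHC class I pathway, which loads peptides onto surface molecules for T cells to read, were lower in part. Of 14 tested members, 4 were lower and 0 higher, against 2.36% of all genes, and the median of the list was -0.37 on the log2 scale. Without hashtag 6, 2 of 14 were lower. H2-K1, a class I heavy chain, stood at 269.7, 121, 152 and 213 CPM in hashtags 1 to 4 and 97.6, 82.4, 112 and 83.6 CPM in hashtags 5 to 8 (log2 fold change -0.95 ± 0.16 (SE, adjusted p = 0.0017)). All 4 values of hashtags 5 to 8 were under those of hashtags 1 to 4, with hashtag 1 the highest. B2m, the shared light chain, was at 761, 585, 577 and 673 CPM in hashtags 1 to 4 and 491, 452, 498 and 471 CPM in hashtags 5 to 8. It changed by -0.43 ± 0.08 (SE, adjusted p = 0.00407) on the log2 scale, and with TMM factors the adjusted p was 0.0537. Tap1, a subunit of the peptide transporter, differed by -1.01 ± 0.21 (SE, adjusted p = 0.00871). H2-D1 was called at -0.38 with overlapping hashtags and was not called with TMM factors (adjusted p = 0.203). H2-K1 and H2-D1 are near-identical in parts, and the counting could split their reads.

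The genes that rose in hashtags 5 to 8 were few. Gm26740, a gene without an assigned function that was picked after its values were seen, stood at 21.1, 16.1, 30.3 and 6.59 CPM in hashtags 1 to 4 and 295, 299, 340.4 and 309 CPM in hashtags 5 to 8. The lowest of hashtags 5 to 8 was far above the highest of hashtags 1 to 4, with a log2 fold change of 3.81 ± 0.17 (SE, adjusted p = 1.1e-12). Raet1e, a stress-induced ligand of the NKG2D receptor and also picked after its values were seen, had 7 UMIs in hashtags 1 to 4 together and 174 in hashtags 5 to 8 together. It stood at 0, 0.731, 1.36 and 0 CPM in hashtags 1 to 4 and 18.2, 16.9, 20.6 and 17.5 CPM in hashtags 5 to 8 (4.24 ± 0.37 (SE, adjusted p = 8.9e-08) on the log2 scale). Both lie on chromosome 10, Raet1e at chr10:22158542-22189697 and Gm26740 at chr10:22186285-22306382. These annotated spans overlap, and reads from the shared part cannot be told apart without strand. Cacna1e, a calcium channel subunit at chr1:154390806-154884785, was at 6.03, 7.31, 5.65 and 4.94 CPM in hashtags 1 to 4 and 41.6, 35.9, 42.6 and 37.4 CPM in hashtags 5 to 8, with a log2 fold change of 2.71 ± 0.19 (SE, adjusted p = 1.1e-09). For all 3 genes the call held in each of the alternatives and left-out hashtags that tested them.

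On chromosome 16, 4 called genes lay within 6 Mb of Ifnar1, which encodes a chain of the type I interferon receptor. This window, chosen after the values were seen, held 38 tested genes, so 10.5% were called against 2.59% of all genes. Itsn1, a scaffold protein of endocytosis at chr16:91729310-91920591, was at 3.01, 5.12, 3.84 and 1.65 CPM in hashtags 1 to 4 and 10.3, 9.88, 12.5 and 11.6 CPM in hashtags 5 to 8, a log2 fold change of 1.57 ± 0.30 (SE, adjusted p = 0.00499). Pigp, an enzyme subunit of GPI anchor synthesis at chr16:94358763-94371015, was at 13.6, 7.31, 6.55 and 6.59 CPM in hashtags 1 to 4 and 20.6, 21.8, 25 and 19.5 CPM in hashtags 5 to 8, with a log2 fold change of 1.53 ± 0.21 (SE, adjusted p = 2.1e-04). Ttc3, a ubiquitin ligase at chr16:94370625-94469222, was higher by 0.90 ± 0.19 (SE, adjusted p = 0.0107) on the log2 scale. Pigp and Ttc3 overlap at their ends, and reads there cannot be told apart without strand. The 4 values of each of these genes in hashtags 5 to 8 were above those in hashtags 1 to 4.

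Itgb2l, an integrin beta chain of neutrophils at chr16:96422288-96443664, was the called gene of this stretch that was lower. It stood at 182, 207, 209.8 and 186 CPM in hashtags 1 to 4 and 52.8, 61.6, 72 and 55.7 CPM in hashtags 5 to 8. The groups lay far apart with little spread inside each, and the log2 fold change was -1.73 ± 0.10 (SE, adjusted p = 2.0e-11), between -1.80 and -1.61 in the alternatives and left-out hashtags. Igsf5 overlaps it on the annotation. Ifnar1 itself was at 15.1, 19, 18.1 and 15.6 CPM in hashtags 1 to 4 and 14.9, 15.6, 16.9 and 17.5 CPM in hashtags 5 to 8, and the hashtags overlapped (-0.11 ± 0.17 (SE, adjusted p = 0.813) on the log2 scale). Ifnar2 differed by -0.13 ± 0.09 (SE, adjusted p = 0.555). Neither receptor gene was called.

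Smaller rises were called for Acvrl1, a receptor of the TGF-beta family (0.74 ± 0.13 (SE, adjusted p = 0.00236) on the log2 scale), and for Ceacam10, a secreted member of the CEA family (0.59 ± 0.11 (SE, adjusted p = 0.00587)). Acvrl1 stood at 34.7, 33.6, 33.5 and 39.5 CPM in hashtags 1 to 4 and 66.8, 56.4, 58.8 and 52 CPM in hashtags 5 to 8. Ceacam10 stood at 69.3, 83.3, 99.2 and 68.3 CPM in hashtags 1 to 4 and 133, 112, 148 and 123 CPM in hashtags 5 to 8. The hashtags of the groups did not overlap for either gene, and both calls were lost among cells without azurophil granule UMIs. Clasp1 (0.45), Hjurp (0.39), Ednra (1.17), AA467197 (0.26) and the histone gene Hist1h4n (0.98, with close copies) completed the list with Lcn2, Lyz2, Ly6g and Cstdc5. Cstdc5, a stefin gene with near-identical relatives, was uneven, at 1.51, 8.77, 10.6 and 17.3 CPM in hashtags 1 to 4 and 6.54, 121, 64 and 42 CPM in hashtags 5 to 8, and its call was lost without hashtag 3 or without hashtag 6.

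**Figure D3:**
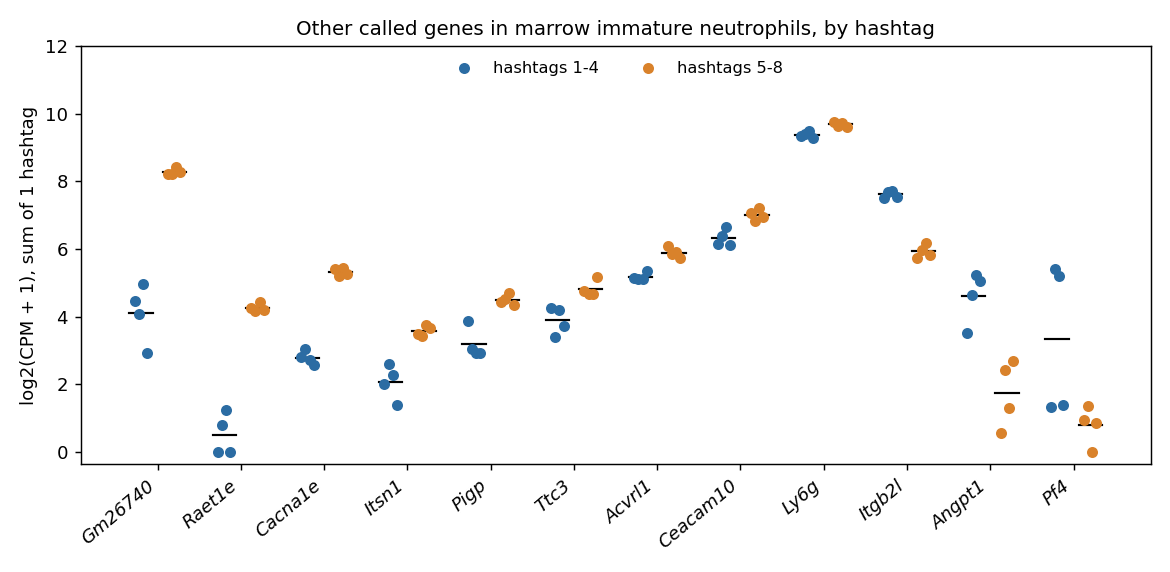
Log2(CPM + 1) of 12 other called genes in the sum of each hashtag, with 1 point per hashtag and a bar at the mean of 4. Gm26740, Raet1e and Cacna1e separate the groups upwards in hashtags 5-8 and Itgb2l and Angpt1 downwards, while Pf4 is high in hashtags 2 and 3 alone.

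Granule genes differed by little or unevenly. Beside the 3 genes of the rule, the specific granule list held 14 others. Of the 13 of these that were tested, 2 were higher and 0 lower in hashtags 5 to 8 (background 0.231% higher), with a median of 0.04 on the log2 scale. With TMM factors 3 were higher (background 0.421%), with a median of 0.15. DESeq2 without independent filtering called 4, all higher. With cells thinned to 3000 UMIs, 0 were higher and 1 lower. The genes of this list come from the same granule as Camp, Ngp and Ltf, so they are not independent of the choice of cells. Lcn2 (lipocalin 2, which binds bacterial siderophores) rose by 0.19 ± 0.05 (SE, adjusted p = 0.0278) and Lyz2 (lysozyme) by 0.19 ± 0.05 (SE, adjusted p = 0.047) on the log2 scale. Both calls were lost in 7 of 8 left-out hashtags. Ly6g, part of the antigen that the Gr1 sort antibody binds, stood at 642, 672, 716 and 626 CPM in hashtags 1 to 4 and 862, 801, 851 and 779.7 CPM in hashtags 5 to 8 (log2 fold change 0.30 ± 0.07 (SE, adjusted p = 0.0113)). Its groups did not overlap, and the call was lost in 6 alternatives, among them cells without cycling signal. Of 14 tested genes of gelatinase granules and mature neutrophils, 2 were lower and 0 higher, against 2.36% of all genes lower, with a median of -0.04. They were Ccl6, a chemokine of myeloid cells (-0.86 ± 0.17 (SE, adjusted p = 0.00655) on the log2 scale), and Clec4d, a C-type lectin receptor (-0.76 ± 0.17 (SE, adjusted p = 0.0145)). With TMM factors Mmp9 (gelatinase B) was called higher (adjusted p = 0.0427, against 0.16 with total UMIs, at 0.23). Of 13 S100 and stefin genes, S100a4 (-1.29) and S100a10 (-1.20) were called lower, against the same 2.36%, and neither call passed with TMM factors (adjusted p = 0.0587 and 0.0555). The median of the list was 0.06. The abundant S100a9 (0.11, adjusted p = 0.064) and S100a8 (0.11, adjusted p = 0.0921) were not called by edgeR, while DESeq2 called both. For each, all hashtags of 5 to 8 were above all of 1 to 4.

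Of 11 tested azurophil granule genes, 3 were lower and 0 higher (background 2.36% lower), with a median of -0.42. Mpo (myeloperoxidase) stood at 34.7, 90.6, 119 and 112 CPM in hashtags 1 to 4 and 75.2, 36.9, 8.09 and 44.5 CPM in hashtags 5 to 8. Hashtags 1 and 7 were low and the groups overlapped (log2 fold change -1.19 ± 0.28 (SE, adjusted p = 0.0244)). Srgn, which packs proteases into the granule, differed by -0.83 ± 0.14 (SE, adjusted p = 0.00226) and Ms4a3 by -0.53 ± 0.14 (SE, adjusted p = 0.0391). Srgn was not particular to the azurophil stage. Its means were 215 CPM in hashtags 1 to 4 and 123 CPM in hashtags 5 to 8. In the marrow mature neutrophils defined below they were 2680 and 2599 CPM. The call of Ms4a3 was lost with TMM factors (adjusted p = 0.124). Elane (neutrophil elastase) was not called at -0.78 (adjusted p = 0.29), with 234, 443, 447 and 257 CPM in hashtags 1 to 4 and 331, 174, 16.9 and 287 CPM in hashtags 5 to 8. Hashtag 7 was lowest by far. DESeq2 without independent filtering called 0 of the 11, and without hashtag 4 or without hashtag 6, 1 was lower. In cells with the 3 granule genes at 5% or more of UMIs, 4 of 11 azurophil genes were lower.

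Ribosomal protein genes were lower as a group of small changes. Of 76 tested, 51 were lower and 0 higher, against 2.36% of all genes lower, with a median of -0.37. With TMM factors 18 were lower, against 1.14% of all genes, with a median of -0.26. Rpl10a stood at 262, 226, 256 and 305 CPM in hashtags 1 to 4 and 169, 159, 107 and 193 CPM in hashtags 5 to 8. The groups did not overlap, and the log2 fold change was -0.71 ± 0.12 (SE, adjusted p = 0.0017), which turned to 0.06 among cells without cycling signal. Rps19 differed by -0.58 ± 0.10 (SE, adjusted p = 0.00245). Summed over the family, the level was 45506, 39739, 45135 and 50261 CPM in hashtags 1 to 4 and 36458, 36185, 30394 and 39872 CPM in hashtags 5 to 8, so hashtag 8 was above hashtag 2. None of these genes was called among cells without cycling signal, where the median was 0.03, without azurophil granule UMIs (-0.07), without markers of other cell types (-0.02), without the 5% of cells with the most UMIs (-0.12), with thinned cells (-0.20), or with stricter hashtags (-0.15). The median thus turned positive in cells without cycling signal. Without hashtag 4, 17 of 76 were lower, without hashtag 3, 23, and without hashtag 1 or hashtag 6, 28.

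Of 19 translation factor genes, 8 were lower, against 2.36% of all genes, and 0 were higher. Npm1 (nucleophosmin, of the nucleolus) was at 90.4, 124, 176 and 178 CPM in hashtags 1 to 4 and 69.1, 90.7, 49.3 and 88.2 CPM in hashtags 5 to 8, and differed by -0.96 ± 0.16 (SE, adjusted p = 0.00153) on the log2 scale. Rack1 (-0.55), Ncl (-0.58) and Eef1a1 (-0.51) were lower too, and the values of Rack1 and Ncl turned positive among cells without cycling signal. None of the 19 was called among cells without cycling signal, without markers of other cell types, without the 5% of cells with the most UMIs, with thinned cells or with stricter hashtags, where the medians were near 0, -0.06, -0.09, -0.15 and -0.18. Without hashtag 3, 3 of 19 were lower. The chaperones of the endoplasmic reticulum Hspa5 (-0.58 ± 0.09 (SE, adjusted p = 0.00111)) and Calr (-0.78 ± 0.16 (SE, adjusted p = 0.00989)) were the 2 called of 17 tested, both lower, against 2.36% of all genes lower. Of this list, 0 were called among cells without cycling signal, without markers of other cell types or thinned. Hspa5 stood at 107, 114, 108 and 117 CPM in hashtags 1 to 4 and 64, 78.5, 74.2 and 80.3 CPM in hashtags 5 to 8. Of 11 genes of the mitochondrial genome 1 was lower, mt-Nd2 (-0.61), against the same 2.36%. Among 24 cell cycle genes 0 were called by edgeR or DESeq2, and 6 had an unadjusted p under 0.05, all lower. The smallest p was that of Hells, a helicase of S phase, at -0.85 (adjusted p = 0.0615).

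Several lists had no called member in either direction. These were the transcription factors of granulopoiesis (14 tested), inflammatory cytokines and NF-kB (11), glycolysis and hypoxia (18), nuclear genes of oxidative phosphorylation (30), the proteasome (23), trafficking and chemoattractant receptors (20), G-CSF and GM-CSF signalling (12), iron and heme (12), and lipid and cholesterol genes (14). Together they held 154 tested genes, of which 18 had an unadjusted p under 0.05 in edgeR, 4 higher and 14 lower. With TMM factors 1 of them was called. DESeq2 without independent filtering called 2 of the 154. In the list of apoptosis genes 1 of 13 was lower, against 2.36% of all genes, Bcl2, the anti-apoptotic founder of its family, at 6.03, 19.7, 9.95 and 19.8 CPM in hashtags 1 to 4 and 3.27, 5.72, 2.21 and 5.41 CPM in hashtags 5 to 8 (-1.57 ± 0.33 (SE, adjusted p = 0.0113) on the log2 scale).

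Some large falls were carried by a few hashtags or concern markers of other cells. Angpt1, a ligand of the TIE2 receptor made by early blood progenitors, was at 10.5, 24.1, 36.4 and 32.1 CPM in hashtags 1 to 4 and 0.467, 4.42, 1.47 and 5.41 CPM in hashtags 5 to 8. The groups did not overlap, and the log2 fold change was -3.11 ± 0.34 (SE, adjusted p = 4.4e-06). Pf4, the platelet chemokine, was at 1.51, 41.7, 36.2 and 1.65 CPM in hashtags 1 to 4 and 0.934, 1.56, 0 and 0.832 CPM in hashtags 5 to 8, high in hashtags 2 and 3 and near 0 in hashtags 1 and 4. Ccl5, a chemokine of T and NK cells, stood at 702 CPM in hashtag 1 (466 UMIs) and had 1 UMI in all other hashtags together, so its call rests on hashtag 1. Summed markers of T or NK cells ran from 43.9 to 88.9 CPM in hashtags 1 to 4, with hashtag 1 the highest, and from 26.5 to 54.2 CPM in hashtags 5 to 8. Car2, of the erythroid list, was at 10.5, 7.31, 21.5 and 3.29 CPM in hashtags 1 to 4 and 0.467, 3.64, 2.94 and 7.49 CPM in hashtags 5 to 8, with overlapping groups. Apoe (-1.48) and Aff3 (-1.99) were lower with uneven hashtags and overlapping groups. Zeb2, a transcription factor of early and monocytic cells, was lower without overlap (-1.45, adjusted p = 0.00225). It stood at 18.1, 17.5, 48.4 and 29.6 CPM in hashtags 1 to 4 and 12.1, 13.5, 8.82 and 12.9 CPM in hashtags 5 to 8.

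The summed markers of progenitors (Kit, Cd34, Mpo, Elane, Ctsg and Prtn3) ran from 573 to 1055 CPM in hashtags 1 to 4 and from 74.2 to 898 CPM in hashtags 5 to 8. Those of erythroid cells ran from 14 to 26.2 and from 4.20 to 9.56 CPM, and those of megakaryocytes from 3.01 to 43.1 and from 0.934 to 2.94 CPM. With stricter hashtags (count of at least 50 and 10 times the next) the megakaryocyte list, which holds Pf4, was at 1.73, 0, 2.14 and 0.921 CPM in hashtags 1 to 4. In hashtags 5 to 7 it was then at 0.958, 2.41 and 3.06 CPM. The erythroid list was then at 1.73, 15.1, 25.6 and 3.69 CPM in hashtags 1 to 4. In hashtags 5 to 7 it was at 4.31, 6.95 and 5.35 CPM. The part of these markers in the falls of ribosomal, azurophil and progenitor genes was not tested. Without the cells with 2 or more UMIs of markers of other lineages, 7 of 15 interferon genes and 0 of 76 ribosomal protein genes were lower. This filter, meant wherever cells without markers of other cell types are named, did not use the progenitor markers above or Ly6c2.

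Marrow mature neutrophils of the same hashtags were the nearest class for comparison. They had under 1% of the 3 granule genes, at least 1% of S100a8 and S100a9, at least 1 UMI of Csf3r and 0 of Csf1r. There were 1409 such cells, with 940 CPM of Elane and 334 CPM of Mpo, against 295 and 70.7 CPM in the assigned immature neutrophils. Elane had a UMI in 11.6% of the mature and 18.3% of the immature cells. The class named mature thus also held RNA of early cells, at higher CPM than the immature class. In this class 33 of 4575 genes were called (0.721%), 4 higher (0.0874%) and 29 lower (0.634%). Of 18 tested members of the interferon response list 8 were lower and 0 higher, with a median of -1.17. Without hashtag 3 the calls were 4 higher and 12 lower, without hashtag 2, 3 and 18, and without hashtag 6, 2 and 18.

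The log2 fold changes in mature neutrophils, with adjusted p, were -6.63 for Ifi27l2a (5.0e-06), -5.53 for Rtp4 (7.1e-07) and -5.31 for Oas3 (1.3e-05). For Isg15 the value was -3.70 (0.00161), for Irf9 -2.34 (0.00737) and for Itgb2l -2.15 (9.0e-04). Gm26740 stood at 5.31 (4.0e-06), Raet1e at 5.44 (4.6e-05) and Cacna1e at 4.46 (3.4e-05). Slfn4, Herc6, Cmpk2 and Dtx3l were called lower in mature cells (-1.53, -2.85, -2.10 and -1.43) and not in immature cells (-0.25, -0.88, -0.47 and -0.46). The test of the difference between stages, with the hashtag as block, called 1 of 8113 genes (0.0123%), Pf4, and neither these 4 nor any member of the interferon list. Without hashtag 3 or without hashtag 6 it called 0. Without hashtag 4 it called 3 genes higher and 8 lower, and without hashtag 1, 1 higher and 2 lower. The 2 stages come from the same hashtags, so they are not independent of each other. Of 76 ribosomal protein genes 0 were called in mature cells, with a median of -0.40.

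**Figure D4:**
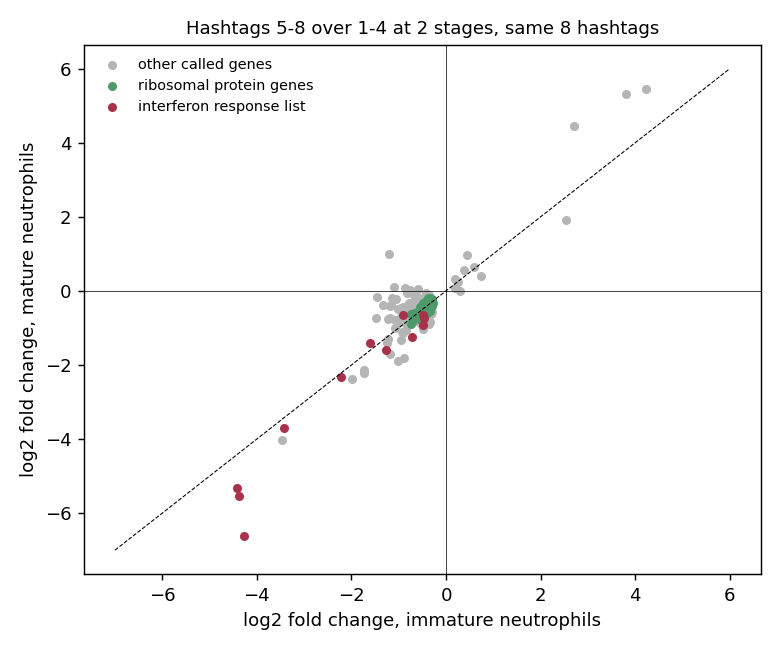
Log2 fold change of hashtags 5-8 over 1-4 in mature neutrophils against that in immature neutrophils, for the 162 genes called in immature neutrophils that were also tested in mature ones; the dashed line marks equal values. Interferon response genes lie in the lower left, with Ifi27l2a at -4.27 and -6.63, and Gm26740, Raet1e and Cacna1e in the upper right.

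Immature neutrophils made up 26.6, 25.1, 30.7 and 28.2% of the assigned marrow cells in hashtags 1 to 4 and 35.8, 35.4, 32.5 and 36.3% in hashtags 5 to 8. The groups did not overlap, which in an exact two-sided permutation test of 4 against 4 gives the smallest p it can, 0.0286, and 0.0694 after adjustment over 17 measures, so the difference was not called. As a share of marrow neutrophils they were 44.5, 45.2, 49.9 and 54.4% in hashtags 1 to 4 and 61.8, 55.5, 54.6 and 60.6% in hashtags 5 to 8 (exact p = 0.0286, adjusted 0.0694). Numbers of target cells were evened out between conditions before the sort, so these are shares of the sorted cells. Cells with at least 3 UMIs of the cell cycle list were 32.8, 51.1, 32.4 and 47.7% in hashtags 1 to 4 and 32.2, 29.8, 25.5 and 26.3% in hashtags 5 to 8 (exact p = 0.0286, adjusted 0.0694). Of the 17 measures, 7 had this smallest p and 0 passed the adjustment. Hashtags 1 and 3 were just above hashtag 5. With each cell thinned to 3000 UMIs, leaving out 35 cells, these shares were 28.3, 35.7, 24.2 and 34.3% and 26.9, 24.7, 19.3 and 23.2%, and the groups overlapped.

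**Figure D5:**
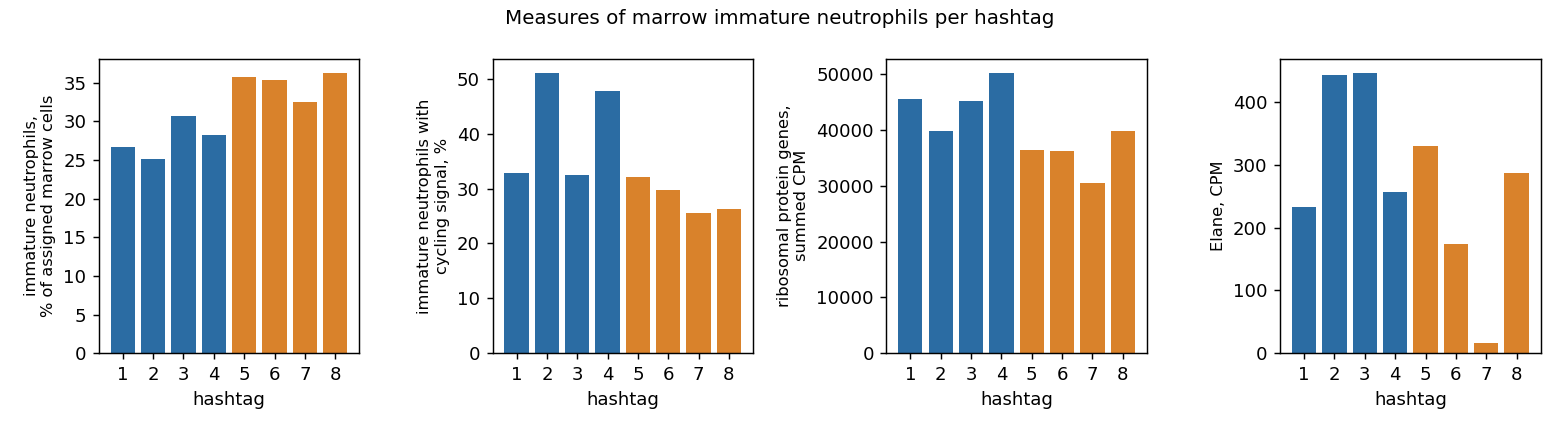
Bars give, for each hashtag, the share of immature neutrophils among assigned marrow cells, the share of them with cycling signal, the summed CPM of ribosomal protein genes and the CPM of Elane. Immature shares are 25.1 to 30.7% in hashtags 1-4 (blue) and 32.5 to 36.3% in hashtags 5-8 (orange), and Elane is lowest in hashtag 7.

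At the cell surface, none of 18 antibodies was called, and 0 had an unadjusted exact p under 0.05. The smallest exact p that 4 hashtags against 4 can give is 0.0286. After adjustment over 18 antibodies, a call would thus need many of them to separate fully. The lack of calls therefore does not show equal levels. CD106 (VCAM-1, an adhesion molecule that keeps cells in the marrow) took 0.982, 0.897, 1.02 and 1.03% of the surface antibody counts in hashtags 1 to 4 and 0.872, 0.958, 0.582 and 0.867% in hashtags 5 to 8 (log2 difference -0.28, exact p = 0.0571, adjusted 0.661). CD11b, the integrin alpha chain of myeloid cells, took 4.55, 3.27, 4.27 and 3.65% and 3.67, 3.60, 2.68 and 2.64% in the same order (log2 difference -0.33, exact p = 0.143). Both shares overlapped between the groups. CD44 held 51.2% ± 2.0 of counts in hashtags 1 to 4 and 53.2% ± 0.860 in hashtags 5 to 8, and Ly6C 3.31% ± 0.202 and 3.25% ± 0.0897 (SD, n = 4 each). The cKit antibody took 0.327% ± 0.0818 and 0.245% ± 0.0758 (SD, n = 4 each; exact p = 0.2). Counts per cell called 0 antibodies as well, with 1 of 18 at an unadjusted exact p under 0.05. It was CD106, at 23.1, 18.6, 18.6 and 22.3 counts per cell in hashtags 1 to 4 and 17.7, 16.3, 12 and 14.7 in hashtags 5 to 8. By this measure its groups did not overlap (log2 difference -0.45, exact p = 0.0286, adjusted 0.343).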

How the data were processed

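Blood, marrow, spleen and tumor cells were profiled by droplet sequencing of RNA and antibody tags; the marrow RNA and antibody libraries were used. The authors deposited raw UMI counts of 32285 genes, 10 hashtag and 18 surface antibodies, made with Cell Ranger 7.0.1 on mm10, per the submitters' processing notes. Other columns, such as barcodes and gene names, were used as deposited. Barcode suffix 2 was taken as marrow from the library name; no source states the tie. No doublet caller was run; cells without a single hashtag were left out of sums.

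Raw counts were summed per hashtag. Genes with at least 100 UMIs over the 8 sums were tested with edgeR 4.0.16 (glmQLFit, glmQLFTest; limma 3.58.1, R 4.3.3), taking each total as the library size, and adjusted by Benjamini-Hochberg over all genes tested. Where no other fit is named, the adjusted p of a gene is from this fit; mature neutrophils and TMM factors had fits of their own. The fit was tested first on simulated data in which all genes had the same spread, so that test does not cover genes with uneven hashtags. A p-value sets the difference of the groups against the spread between hashtags, which edgeR estimates with information from all genes. Fold changes of the edgeR fits used the default prior count of that tool. Antibody shares and cell measures were tested with exact two-sided permutation tests. The stage test used the hashtag as block, since both stages come from the same hashtags. Genes were named by size of change (12 largest, 12 smallest, at least 10 CPM, no ribosomal, mitochondrial, hemoglobin, immunoglobulin or unnamed genes), by list (up to 4 of smallest p) and, where stated, after their values were seen; further list members are given to account for the list. The groups, members and lists were chosen with earlier results of these data known. Alternatives (DESeq2 1.42.0, TMM, filters, cell choices, left-out hashtags) are under the closing section. Some results are not reported here. Gene positions came from RefSeq GRCm38.p6, which matched 7287 of 7365 tested genes by symbol. Sums do not tell fewer expressing cells from less RNA per cell.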

Additional observations from a re-analysis of the deposited data

Results flagged for a closer look

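Some values stood apart from the other 3 hashtags of their group. In hashtags 1 to 4, hashtag 1 was the highest in Isg20 (16.6 CPM), Ddx60 (85.9 CPM), Pigp (13.6 CPM) and Ccl5 (702 CPM), and the lowest in Rnf213 (25.6 CPM). Hashtag 4 was the highest in the summed eosinophil markers (7.41 CPM). In hashtags 5 to 8, hashtag 5 was the lowest in Gm20559 (6.07 CPM) and held the single UMI of Ccl5 (0.467 CPM). In all, 202 groups of 4 were checked and 8 values stood out, where chance gives about 5% of groups, and hashtag 1 has the fewest cells (61).

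Pf4 differed between the stages, by a log2 value of -9.10 in the test of the difference. It was lower in hashtags 5 to 8 in immature neutrophils, while in mature neutrophils its mean was 0.717 CPM in hashtags 1 to 4 and 18.8 CPM in hashtags 5 to 8, with 80 of its UMIs there in hashtag 6 and at most 2 in any other. Its RNA in immature neutrophils was high in hashtags 2 and 3 alone. With stricter hashtags the megakaryocyte list, which holds Pf4, was at 0 CPM in hashtag 2 and 2.14 CPM in hashtag 3.

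Hashtag antibody 9 had 9 counts and hashtag antibody 10 had 591 counts over all cells of the series, outside the 8 hashtags used.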

How the results depend on the processing

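Against 191 calls in immature neutrophils, TMM factors gave 115 (31 higher, 84 lower), DESeq2 88 (43 higher, 45 lower), DESeq2 without independent filtering 90 (33 higher, 57 lower), and library sizes without abundant genes 121 (29 higher, 92 lower). DESeq2 by default set no adjusted p for 6711 of 7365 genes, the strongest interferon genes among them, and called Ifitm6 higher, which no other setting did. No filter on low counts gave 424 (30 higher, 394 lower), at least 500 UMIs 114, a fit with the mature sums 47, and means of per-cell CPM in limma, on log2(CPM + 1), 41. By choice of cells the calls were 45 at a 5% granule share, 34 with stricter hashtags (count of at least 50 and 10 times the next), 20 thinned to 3000 UMIs, 47 without cycling signal, 29 without markers of other cell types and, added after seeing the data like DESeq2 without filtering, 22 without azurophil granule UMIs and 49 without the 5% of cells with the most UMIs; these fits hold fewer cells or UMIs. Granule shares of 0.5 or 2% and leaving out poor cells kept the count within 1.5 times. Left-out hashtags gave 80 to 233 calls in immature (80, 98 and 101 without hashtags 3, 4 and 6) and 16 to 43 in mature neutrophils (21 without hashtag 2), and 0 to 11 for the stage difference.

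Without the hashtag block, that is unpaired, the stage difference called 0 genes in place of 1. No paired analysis was possible for the main comparison because no label pairs a hashtag of 1 group with one of the other. Turns of sign were counted only for 79 genes given in this text, of which 67 were called. Of these called genes, 4 turned sign. They were Ms4a3 (0.0322 without azurophil granule UMIs), and, without cycling signal, Rack1 (0.175), Rpl10a (0.0604) and Ncl (0.0625, and 0.0267 without other markers). The count leaves out the remaining called genes, and the median of the 76 ribosomal protein genes was 0.03 without cycling signal. Among the 79, genes not called turned to 0.10 (Elane, without cycling signal) and, for Ifnar1, 0.0077 (DESeq2 without filtering), 0.0188 (stricter hashtags), 0.0555 (per-cell means), 0.18 (without cycling signal) and 0.0076 (without other markers). CD44 per cell gave -0.12. Antibodies and cell measures gave 0 calls in each alternative; with 3 hashtags in a group no exact p can fall below 0.0571. The causes were not tested.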
